A study of Rattus norvegicus with 6 samples.

Results

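Interferon-stimulated genes are the genes that cells switch on when an interferon binds its receptor, and a fixed list of 33 of them was followed in rat liver. An array feature belonged to a gene when its RefSeq accession was that gene's, and the brightest feature stood for the gene. Of the 33 genes, 30 had a matched feature on the array, and all 30 were among the 11434 genes tested. Ddx58, Herc6 and Xaf1 had no matched feature and were not analysed here.

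The study compared livers of male Sprague-Dawley rats, bought at 5 weeks of age, 3 of them given corn oil as the vehicle and 3 given phenolphthalein, a former laxative drug, at 1000 mg per kg of body weight each day. The treatment protocol gives 9 weeks of dosing while the design text gives a liver measurement at 28 days, and the labels do not settle which holds. Total liver RNA of each rat was put on 1 Agilent 1-colour array, and no genotype or pathogen status is given in the labels. Every value below is a level, meaning the feature's signal divided by the 75th percentile of the signals on its array, so a level of 1 is a signal at that percentile. Levels are compared between arrays for 1 feature and not between genes, since features differ in brightness.

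Type I interferons bind the receptor pair IFNAR1 and IFNAR2, whose kinases JAK1 and TYK2 phosphorylate STAT proteins, STAT2 among them. IRF9 carries STAT2 to interferon response elements in promoters, as part of the complex ISGF3. Interferon gamma acts through its own receptor. In liver, hepatocytes, Kupffer cells and endothelium all respond to interferon, and the induced proteins sense viral RNA, block its translation, degrade it, or call in lymphocytes.

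The 75th percentile signal was 595 to 636 on the corn oil arrays and 551 to 578 on the phenolphthalein arrays, and 62.1% to 65.1% of features were well above background on each. The slide of the corn oil livers differed from that of the phenolphthalein livers, and each was scanned apart. Treatment, slide and scan therefore cannot be told apart. Of the 30 genes, 29 were well above background on every array. The exception, Ifit1, was so on 3 of 3 corn oil arrays and on 1 of 3 phenolphthalein arrays. All 10 hepatocyte markers were well above background on every array. Alb, the gene of serum albumin, read between 745 and 793 in every liver. Saturated spots numbered 0 for the interferon-stimulated genes, and saturation of the marker spots is not given here.

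Promoters of many of these genes carry letters of the elements through which interferon acts. A few that do so are printed, all from genes in which every phenolphthalein liver read below every corn oil liver. Other promoters with these letters, such as those of Parp14 and Ifi27, are not printed. RefSeq promoter sequence on assembly GRCr8, from 250 bases before to 50 after the start site, was matched by symbol for 26 of the 33 genes. The entries for Ifit1, Ifit2, Isg15, Ddx58, Dhx58, Mx2 and Usp18 were missing. The letters GAAANNGAA, on either strand, are the core that interferon regulatory factors and ISGF3 bind. In the lines that follow, capitals mark this core, and every sequence runs 5′ to 3′ on the gene's own strand. Irf7, the regulator of type I interferon genes, is shown from chr1:205800024-205800123 (minus strand). The neighbouring synthetase genes Oas1a and Oas1b are from chr12:41330366-41330465 (plus) and chr12:41395853-41395952 (minus). The RNA-binding effector Ifit3 comes from chr1:241527226-241527325 (plus), the GTPase gene Gbp2 from chr2:234005627-234005726 (plus) and Ifi44 from chr2:243303841-243303940 (minus). These 6 cover the 100 bases just before the start site. Oasl2, from chr12:47383286-47383385 (minus), covers the 100 bases before those.
Irf7: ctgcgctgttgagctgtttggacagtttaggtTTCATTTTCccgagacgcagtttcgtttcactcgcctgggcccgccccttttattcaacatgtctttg
Oas1a: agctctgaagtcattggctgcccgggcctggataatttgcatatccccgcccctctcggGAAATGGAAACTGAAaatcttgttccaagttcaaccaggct
Oas1b: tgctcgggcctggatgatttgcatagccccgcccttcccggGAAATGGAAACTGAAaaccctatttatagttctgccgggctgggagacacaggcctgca
Ifit3: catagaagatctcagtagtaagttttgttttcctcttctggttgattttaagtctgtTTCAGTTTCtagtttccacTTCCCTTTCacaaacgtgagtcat
Gbp2: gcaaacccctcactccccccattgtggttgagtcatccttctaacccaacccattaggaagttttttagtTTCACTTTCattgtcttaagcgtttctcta
Ifi44: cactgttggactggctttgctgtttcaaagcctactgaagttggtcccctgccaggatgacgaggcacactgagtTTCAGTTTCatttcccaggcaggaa
Oasl2: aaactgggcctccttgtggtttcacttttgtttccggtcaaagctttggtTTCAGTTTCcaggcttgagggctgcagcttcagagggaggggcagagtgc

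The core GAAANNGAA was found in 17 of the 26 promoters (65.4%), against 9.71% of the 33469 promoters in the whole table. More than 1 match stood in 6 of them (23.1%), against 0.759% of all. Oas1a and Oas1b each held a pair of matches that overlap, forming the run GAAATGGAAACTGAA that begins 41 bases before the start in Oas1a and 59 bases before it in Oas1b. The whole promoters of this pair were identical at 233 of 281 aligned bases (82.9%). Ifit3 held matches 43 and 24 bases before its start. The core was not in the window of Irf1, Irf9, Stat2, Mx1, Oasl, Herc6, Parp9, Cxcl9 or Cxcl11. The median log2 fold change, phenolphthalein over corn oil, was -0.55 in the 16 tested genes with the core. In the 8 tested genes without it the median was -0.43. Every phenolphthalein liver read below every corn oil liver in 8 of the 16 and 3 of the 8, against 11.0% of all genes. A link between the core and the difference was not tested.

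**Figure D1:**
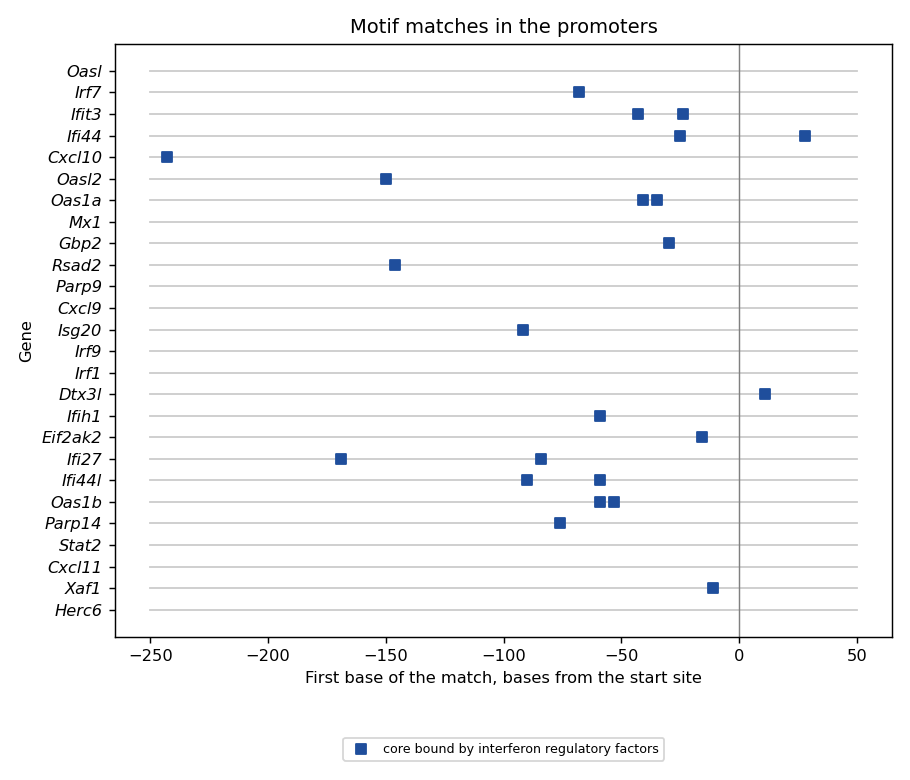
Matches to the interferon regulatory factor core (squares) in the promoters of 26 interferon-stimulated genes, by the distance in bases of the match's first base from the start site (vertical line). Most squares lie within the last 100 bases before the start, and the pairs in Oas1a, Oas1b and Ifit3 stand close together.

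Across the list, 27 of 30 genes had a lower mean with phenolphthalein and 3 a higher one, where 48.2% of all genes tested had a lower mean. The median log2 fold change, phenolphthalein over corn oil, was -0.52 (n = 3 livers per group), against 0.0096 over all genes, with a range of -1.43 to 0.10. None of the 30 passed the test (limma, Benjamini-Hochberg adjusted p under 0.05 over all 11434 genes). The whole comparison called 1 gene lower (0.00875% of those tested) and 6 higher (0.0525%). At an unadjusted p under 0.05 there were 10 genes of the list, all lower, against 8.11% of all genes lower and 7.16% higher. In 12 of 30 every phenolphthalein liver read below every corn oil liver, where 11.0% of all genes did so. The opposite order held in 0 of 30, against 12.2% of all genes. A mean at least 2-fold lower was found in 8 of 30, against 1.39% of all genes. Without corn oil replicate 1 that count was 1, Ifi44, against 1.66% of all genes. Without phenolphthalein replicate 1 it was 5, against 1.43%. With another background correction (normexp) it was 1, Irf7, against 0.446%, and with arrays set to a common median it was 3, against 1.06%. Ifit1 met the brightness filter through its corn oil arrays. With a filter on all 6 arrays, which leaves Ifit1 out, the count was 7, against 0.537% of all genes, and 26 genes had a lower mean. The labels name 3 animals per group, so the p-values measure the spread between animals within each slide.

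**Figure D2:**
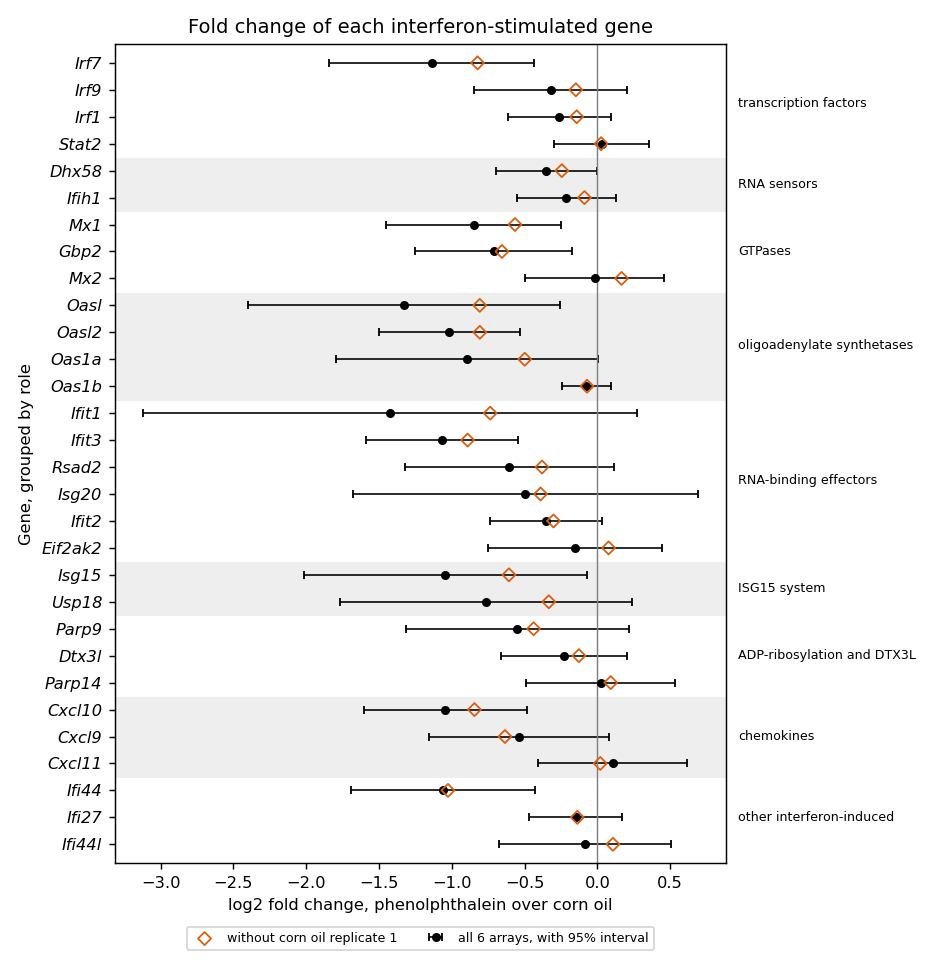
Log2 fold change of each of 30 interferon-stimulated genes, phenolphthalein over corn oil, grouped by role, with its 95% interval from limma on 6 arrays (black) and its value without corn oil replicate 1 (open diamonds). Of the points, 27 lie left of 0. Oasl2, Ifit3, Cxcl10, Ifi44, Irf7 and Isg15 lie at about -1, and Oasl at -1.33, with intervals that end below 0. Without corn oil replicate 1, Isg15 lies at -0.61 and Oasl at -0.81.

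Among the transcription factors, Irf7 was the one whose groups did not overlap. Irf7, itself induced by interferon and needed for the second wave of interferon production, read 13.3, 5.97 and 8.09 in corn oil replicates 1 to 3 and 3.81, 4.18 and 3.80 in phenolphthalein replicates 1 to 3. All 3 treated livers lay close together and below the lowest control. A log2 fold change of -1.14 ± 0.29 (SE) followed, a mean 2.20-fold lower, with a limma adjusted p of 0.209. Irf1, an early factor induced mostly by interferon gamma, read 8.03, 5.59 and 7.05 with corn oil and 5.56, 5.53 and 5.97 with phenolphthalein. The groups overlapped, with corn oil replicate 2 among the treated livers. Irf9, the DNA-binding subunit of ISGF3, read 1.45, 0.872 and 1.16 against 0.844, 1.09 and 0.818, also overlapping. Stat2, another ISGF3 subunit, read 19.7, 19.6 and 20.1 against 20.2, 23.9 and 17.0, so its controls fell between the treated livers. Its log2 fold change was 0.03 with a 95% interval of -0.30 to 0.35.

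Both measured RNA sensors of the cytoplasm had lower means with overlapping groups. Ifih1, which encodes the sensor MDA5 of long double-stranded RNA, read 0.627, 0.515 and 0.456 with corn oil and 0.450, 0.498 and 0.421 with phenolphthalein. Dhx58, which encodes LGP2, a helicase that tunes MDA5, read 0.936, 0.730 and 0.767 against 0.576, 0.733 and 0.597. Only phenolphthalein replicate 2 reached the lowest control. Log2 fold changes were -0.21 ± 0.14 (SE) for Ifih1 and -0.35 ± 0.14 for Dhx58.

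The GTPase genes split. Mx1, a dynamin-like protein that traps viral ribonucleoproteins, read 9.12, 4.75 and 5.36 with corn oil and 3.32, 3.51 and 3.40 with phenolphthalein. The treated livers were nearly equal and all below the controls. Mx1 had a log2 fold change of -0.85 ± 0.25 (SE; limma adjusted p = 0.239). Gbp2, a guanylate-binding protein that attacks vacuoles holding microbes, read 3.85, 4.38 and 2.68 against 1.94, 2.00 and 2.65, so corn oil replicate 3 and phenolphthalein replicate 3 nearly met. Its log2 fold change was -0.71 ± 0.22. The brightest feature of Mx2, a close relative of Mx1, read 124, 73.0 and 97.9 against 97.2, 96.7 and 90.5. All treated livers lay inside the control range, with a log2 fold change of -0.02 and a 95% interval of -0.50 to 0.46.

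All 4 oligoadenylate synthetase genes had every treated liver below every control, by margins that ranged from wide to very small. These enzymes sense double-stranded RNA and make the short oligoadenylates that activate RNase L, and the OASL proteins are relatives of them. Oasl2 read 1.73, 1.03 and 1.22 with corn oil and 0.595, 0.686 and 0.650 with phenolphthalein. Its log2 fold change of -1.02 ± 0.20 (SE) had the lowest adjusted p of the list, 0.165 in limma. The treated livers were tight and well clear of the controls. Oasl read 0.277, 0.0980 and 0.0901 against 0.0580, 0.0549 and 0.0485, with corn oil replicate 1 far above the other controls. Its log2 fold change of -1.33 ± 0.44 became -0.81 without that array and -0.66 with normexp. Oas1a, the inducible synthetase whose promoter is printed above, read 23.8, 9.21 and 11.9 against 6.86, 9.20 and 6.42, where phenolphthalein replicate 2 all but equalled corn oil replicate 2. The log2 fold change of Oas1a was -0.90 ± 0.37, and -0.50 without corn oil replicate 1. Its neighbour Oas1b read 62.3, 59.8 and 63.7 against 59.7, 58.6 and 57.8, the smallest gap of the 4 at a log2 fold change of -0.08 ± 0.07. Oas1a and Oas1b share much of their sequence, and how far each feature binds both messages was not tested.

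Among the 6 genes whose products bind or act on RNA, all means were lower, and only Ifit3 had groups that did not overlap. Ifit3, part of the complex that holds back viral messages lacking a self cap, read 0.732, 0.440 and 0.589 with corn oil and 0.269, 0.322 and 0.239 with phenolphthalein. Every treated liver was below the lowest control. Ifit3 had a log2 fold change of -1.07 ± 0.21 (SE; limma adjusted p = 0.168). Ifit1, the cap-binding member of that complex, read 0.164, 0.0260 and 0.0588 against 0.0187, 0.0183 and 0.0377. Its controls spanned a wide range, and since only 1 treated array was well above background its log2 fold change of -1.43 ± 0.69 rests on dim spots. That value was -0.74 without corn oil replicate 1 and -0.46 with normexp. Ifit2 read 1.10, 1.10 and 0.881 against 0.956, 0.771 and 0.691, with 1 treated liver inside the control range. Rsad2, which encodes viperin, an enzyme that makes a chain-terminating nucleotide, read 2.13, 1.01 and 1.76 against 0.856, 1.16 and 1.08. Corn oil replicate 2 fell among the treated livers. Isg20, an exonuclease for RNA, was the most scattered in the treated group, at 2.25, 1.24 and 0.712 against 2.05, 2.42 and 1.13 in controls. Eif2ak2, the gene of the kinase PKR that stops translation, read 1.89, 1.06 and 1.30 against 1.06, 1.50 and 1.20, with a log2 fold change of -0.15 ± 0.24.

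The ISG15 system tags proteins with a small ubiquitin-like molecule. Isg15, the tag, read 12.1, 4.28 and 5.52 with corn oil and 3.24, 3.81 and 2.63 with phenolphthalein. Every treated liver was below every control, although corn oil replicate 1 was more than 2-fold above the other controls. The log2 fold change of Isg15 was -1.05 ± 0.40 (SE; limma adjusted p = 0.306), and -0.61 without that array. Usp18, which removes the tag and damps the type I receptor, read 4.89, 1.74 and 2.28 against 1.55, 2.05 and 1.24. Here the groups overlapped, and the log2 fold change of -0.77 ± 0.41 became -0.33 without corn oil replicate 1.

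Genes of ADP-ribosylation showed no separation of the groups. Parp9 works with its partner Dtx3l, a ubiquitin ligase. Parp9 read 2.31, 1.81 and 1.85 with corn oil and 0.848, 1.97 and 1.48 with phenolphthalein, with phenolphthalein replicate 1 lowest and replicate 2 inside the control range. Dtx3l read 0.308, 0.232 and 0.269 against 0.183, 0.249 and 0.261. In both genes phenolphthalein replicate 1 was the lowest array. Parp14, a mono-ADP-ribosyltransferase, read 15.3, 12.4 and 14.3 against 11.2, 13.4 and 19.0, with the treated livers on both sides of the controls.

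Of the 3 chemokines that draw in activated T cells through the receptor CXCR3, Cxcl9 and Cxcl10 had separate groups and Cxcl11 did not. Cxcl10 read 1.38, 1.01 and 0.821 with corn oil and 0.444, 0.469 and 0.627 with phenolphthalein, each treated liver below each control. Cxcl10 had a log2 fold change of -1.04 ± 0.23 (SE; limma adjusted p = 0.172). Cxcl9, induced above all by interferon gamma, read 1.14, 1.80 and 1.07 against 0.697, 0.993 and 1.02. The groups did not overlap, by a narrow margin, and corn oil replicate 2 was the highest. Cxcl11 read 1.19, 1.34 and 1.51 against 1.48, 1.09 and 1.85, overlapping, with the highest log2 fold change of the list at 0.10 ± 0.21.

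Of the remaining interferon-induced genes, Ifi44 was the one with separate groups. Ifi44 read 4.70, 4.04 and 4.72 with corn oil and 1.49, 3.03 and 2.18 with phenolphthalein. Its controls were tight and the treated livers spread below them. The log2 fold change of -1.06 ± 0.26 (SE; limma adjusted p = 0.200) was -1.03 without corn oil replicate 1. Ifi44l, its neighbour in name and family, read 0.255, 0.199 and 0.146 against 0.221, 0.187 and 0.150, where the groups lay over each other. Ifi27, a small protein of the mitochondrial and nuclear membranes, read 308, 315 and 287 against 277, 232 and 318, with phenolphthalein replicate 3 the highest of all arrays.

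**Figure D3:**
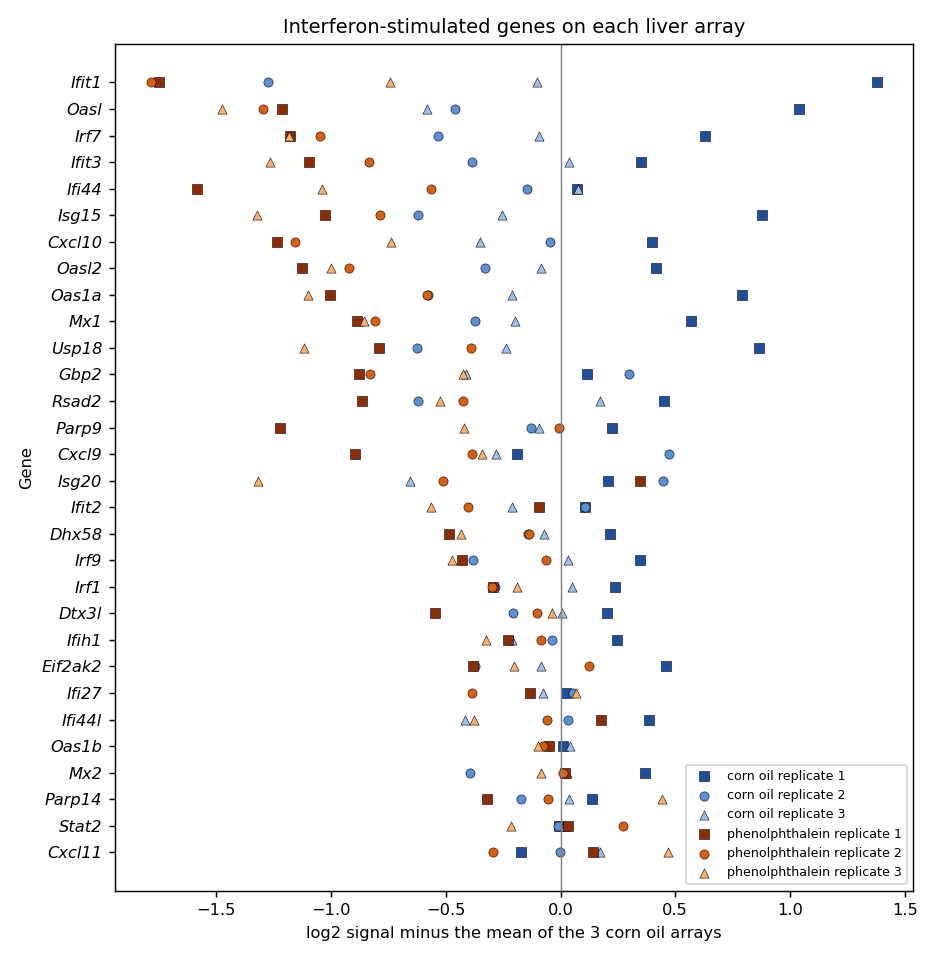
Log2 signal of 30 interferon-stimulated genes on each of 6 liver arrays, minus the mean of the 3 corn oil arrays (blue symbols; phenolphthalein in orange). Corn oil replicate 1 (dark blue squares) is the highest array for 20 of the genes.

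The size of the difference varied with the feature read. The 30 genes had 52 features, of which 51 passed the brightness filter. Of these, 44 had a lower mean with phenolphthalein, against 48.2% of all 19528 features past the filter. Every treated liver lay below every control in 21, against 10.5% of those features. At least 1 such feature was found for 15 genes, the 12 above with Irf1, Dhx58 and Ifit2, against 15.1% of all genes. Among the 16 genes with over 1 feature, 14 had a dimmer feature with a lower log2 difference than the brightest, and 2, Eif2ak2 and Parp14, had features of opposite sign. The second Mx2 feature read 1.37, 0.490 and 0.772 with corn oil and 0.345, 0.557 and 0.255 with phenolphthalein, a log2 difference of -1.13 against the -0.02 of the brightest feature. The second Mx1 feature gave -1.49 against -0.85, and the second Irf1 feature gave -0.59 with groups that did not overlap, against -0.26. In Ifi44 all 3 features had separate groups, at -1.06, -0.56 and -1.10. The second Eif2ak2 feature gave 0.24 against -0.15. Which transcript of each gene a feature reads is not given in the sources used here.

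**Figure D4:**
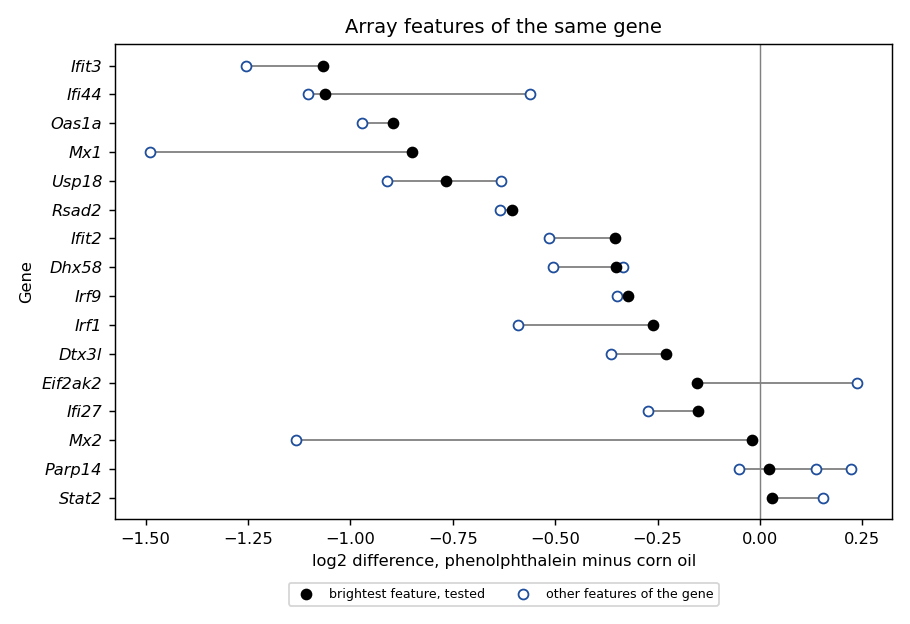
Log2 difference, phenolphthalein minus corn oil, for each array feature of the 16 interferon-stimulated genes with over 1 feature past the filter, with the brightest feature filled. The Mx2 features lie furthest apart, and in Eif2ak2 and Parp14 they fall on both sides of 0.

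One control liver was often the highest. Corn oil replicate 1 was the highest of all 6 arrays for 20 of 30 genes, where 17.8% of all genes had it highest. Its median distance above the mean of corn oil replicates 2 and 3 was 0.45 on the log2 scale, against 0.0097 over all genes. For 18 of 30 genes it lay further from the other controls than the phenolphthalein mean did, as for 48.2% of all genes. The median SD of the list was 0.37 in corn oil and 0.25 in phenolphthalein, against 0.135 and 0.138 over all genes. Without corn oil replicate 1 the median log2 fold change was -0.36, with 24 of 30 genes lower. Groups did not overlap in 12 of 30 against 15.7% of all genes, and Mx2, Eif2ak2 and Ifi44l changed sign. Oasl2 at -0.81, Ifit3 at -0.89, Cxcl10 at -0.84, Irf7 at -0.82 and Ifi44 at -1.03 kept most of their difference.

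Genes that sense viruses or carry the interferon signal had means on both sides of the controls. Of 42 such genes, 33 had a matched feature and 26 were tested. A lower mean was found in 15, none passed the test, and the median log2 fold change was -0.04. An unadjusted p under 0.05 was reached by 5 lower genes, against 8.11% of all genes, and by 2 higher genes, against 7.16%. The 5 became 1 when phenolphthalein replicate 1, phenolphthalein replicate 2 or corn oil replicate 2 was left out. They became 2 without corn oil replicate 3, with arrays set to a common median or with the replicate number as a block. The share of all genes in these settings ran from 4.74% to 7.44%. Groups did not overlap in 6 lower genes, against 11.0% of all genes, and in 3 higher genes, against 12.2%. With a filter on all 6 arrays, which leaves out Tlr7, the lower counts were 4 and 5, against 8.33% and 10.8% of all genes. Ligands could hardly be read. Ifnb1, Ifnk and Ifng were not well above background on enough arrays, and Ifna4, the only ligand tested, had a log2 fold change of 0.05 ± 0.11 (SE). Further signalling genes had small log2 fold changes, with Jak1 at 0.02 ± 0.07, Ifnar1 at -0.05 ± 0.13 and Irf3, the factor that starts interferon production, at 0.13 ± 0.07. Ifnar2 and Tyk2 had no matched feature.

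The 5 signalling genes of smallest unadjusted p went both ways. Tlr7, the endosomal sensor of single-stranded RNA, read 0.0414, 0.0431 and 0.0384 with corn oil and 0.0198, 0.0207 and 0.0237 with phenolphthalein. It was well above background on every corn oil array and on no phenolphthalein array, which gives a mean at least 1.77-fold lower. Since it met the brightness filter through the corn oil arrays alone, it had to read lower in the others, and no p is given for it. Irf5, a factor downstream of that receptor in myeloid cells, read 0.648, 0.601 and 0.515 against 0.341, 0.393 and 0.508. Ifngr1, a chain of the interferon gamma receptor, read 6.82, 7.84 and 7.27 against 5.87, 5.86 and 6.53. In Irf5 and Ifngr1 every treated liver lay below every control. Ikbke, a kinase that phosphorylates Irf3 and Irf7, read 2.60, 2.26 and 2.55 against 4.55, 3.54 and 3.49. Stat3, the main carrier of interleukin signals in liver, read 6.20, 5.94 and 6.25 against 6.89, 9.42 and 11.6. In these last genes every treated liver was above every control, with log2 fold changes of 0.64 ± 0.13 and 0.57 ± 0.19 (SE).

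Further interferon-induced genes outside the list had mostly lower means. Of 45, 32 were matched and tested, 29 had a lower mean, none passed the test and the median log2 fold change was -0.33. Groups did not overlap in 14 lower genes, against 11.0% of all genes, and in 1 higher gene, against 12.2%. At an unadjusted p under 0.05, 11 were lower, against 8.11% of all genes, and 7 without phenolphthalein replicate 1, against 7.18%. Corn oil replicate 1 was the highest array for 21 of 32. Gbp5, a guanylate-binding protein linked to inflammasomes, read 0.664, 0.650 and 0.515 with corn oil and 0.425, 0.359 and 0.361 with phenolphthalein. Its log2 fold change was -0.67 ± 0.13 (SE). The next genes by p were Epsti1 at -0.79 ± 0.17, Lgals3bp, a secreted galectin-binding protein, at -0.87 ± 0.20, and the membrane proteins that block viral entry, Ifitm2 at -0.39 ± 0.10 and Ifitm1 at -0.49 ± 0.13. In these 5 genes each treated liver was below each control.

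Markers of macrophages and lymphocytes also had lower means in the treated livers. Counts of markers with separate groups can be set against the 11.0% of all genes that had every treated liver below every control and the 12.2% that had the reverse. In whole liver, fewer cells of a type and less RNA per cell cannot be told apart. Of 14 tested Kupffer cell and macrophage markers, 13 had a lower mean, 7 with groups that did not overlap, and the median log2 fold change was -0.59. Their summed level was 239 to 331 with corn oil and 187 to 235 with phenolphthalein. A summed level adds the levels of a list's genes, so the brightest features weigh most in it. On corn oil replicate 1, where the sum was 331, Clec4f read 96.0 and C1qb 87.1. Marco, a scavenger receptor of Kupffer cells, read 3.00, 4.34 and 2.31 against 1.06, 0.946 and 1.48, while Cd14, part of the endotoxin receptor, had a higher mean with a log2 fold change of 0.82. Corn oil replicate 1 had the highest summed level of these markers, as it did for most of the interferon-stimulated genes. T and B lymphocyte markers summed to 3.43 to 4.03 with corn oil and 2.46 to 2.85 with phenolphthalein. All 8 tested had a lower mean, 4 with separate groups, and Cd3e and Cd2 were not well above background on enough arrays. The gene of smallest p, Ptprc, is a gene of leukocytes in general and not of lymphocytes alone. Its log2 fold change was -0.59. Within the sum, Ptprc read 1.77, 1.62 and 1.53 with corn oil and 1.06, 0.986 and 1.21 with phenolphthalein. Natural killer cell markers summed to 2.45 to 3.28 and 1.49 to 2.33. There 4 of 6 were lower, 2 with separate groups, with Nkg7, again the gene of smallest p, at -0.68. Klrd1 at 0.29 and Klrb1a at 0.02 had higher means, with overlapping groups. Ncr1 was not well above background on enough arrays. The part of these cells in the lower means of the interferon-stimulated genes was not tested.

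Markers of other cell types gave the following values, each with its gene of smallest p. Their sums too are weighted towards the brightest features. In lists of 4 to 8 genes, a count of 1 with separate groups is too small to tell from the 11.0% over all genes. Dendritic cell markers summed to 0.662 to 0.785 with corn oil and 0.666 to 0.704 with phenolphthalein, with 3 of 4 lower, 2 of them with separate groups, and Clec9a at -0.56. Zbtb46, 1 of the 2 with separate groups, was well above background on 3 corn oil and 2 phenolphthalein arrays, and Ccr7 on 2 and 1. Xcr1 was not well above background on enough arrays. Neutrophil markers summed to 1.23 to 1.75 and 1.36 to 2.13, with 2 of 4 lower, a median log2 fold change of 0.19 and Camp at -0.39. S100a9 at 0.57 and S100a8 at 0.51 had overlapping groups and larger differences than Camp, in the other direction. Elane and Cxcr2 were not well above background on enough arrays. Endothelial markers summed to 64.1 to 66.2 and 58.6 to 65.2, with 5 of 5 lower, 1 with separate groups, and Cdh5 at -0.29. Stellate cell markers summed to 30.3 to 33.5 and 23.8 to 32.1, with 8 of 8 lower, 1 with separate groups, and Col1a1 at -0.48. Bile duct markers were higher in 4 of 5 genes, 3 with separate groups, summing to 1.63 to 1.78 and 2.08 to 2.15, with Cftr at 0.85. Hepatocyte markers summed to 4024 to 4265 and 4172 to 4367, with 2 of 10 lower, a median log2 fold change of 0.06 and Tat at 0.33.

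**Figure D5:**
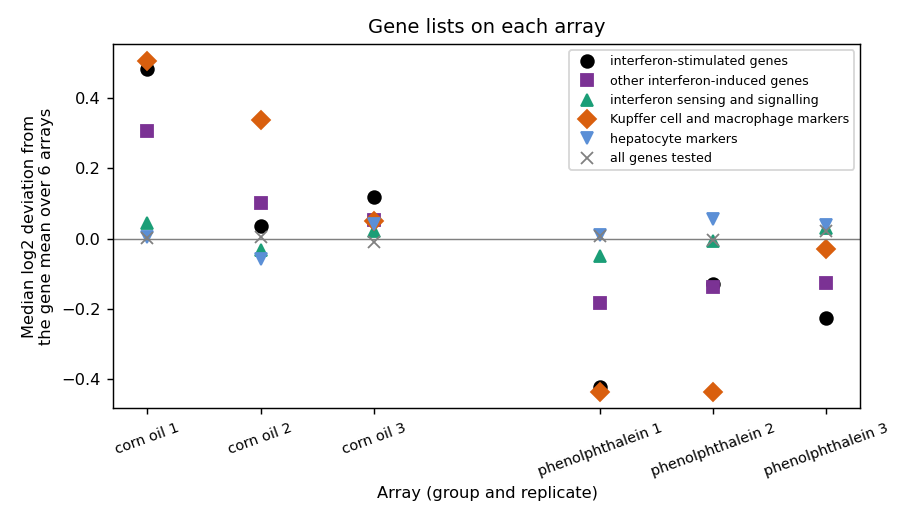
Median deviation of each gene list from the gene's mean over 6 arrays, on the log2 scale, for each array. The interferon-stimulated genes (black circles) stand at 0.48 on corn oil replicate 1 and at -0.42 on phenolphthalein replicate 1. The Kupffer cell and macrophage markers (diamonds) stand at 0.51 and -0.44 on the same arrays. These lists stand further apart on corn oil replicate 2, at 0.035 against 0.337. They also part on phenolphthalein replicate 2 (-0.127 against -0.435) and phenolphthalein replicate 3 (-0.226 against -0.029). Hepatocyte markers stay near 0.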

How the data were processed

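Each of 6 rats gave 1 Cy3-labelled sample of total liver RNA, read on a 1-colour Agilent array, as the labels state. The deposited scanner files hold spot intensity as written by Agilent Feature Extraction. The submitters' processing notes give its version as 10.7, and the file headers as 10.7.1.1. That software had subtracted the background from the processed intensity, per the file headers. The authors' deposited value table, used as an alternative, was found to be this intensity over a constant near the 75th percentile of each array. It is therefore linear, not centred per gene, and runs the same way. In replicate order, its column medians with corn oil were 0.0984, 0.101 and 0.102, and with phenolphthalein 0.0955, 0.0941 and 0.096.

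Values are log2 of the processed signal minus the array's 75th percentile over 61657 features other than controls, with outlier-marked spots, 4 to 14 per array, set missing. Accessions without versions matched 27460 features to a single gene in RefSeq names of GRCr8 and 34197 to none. Features well above background on at least 3 of 6 arrays were kept, and the brightest stood for its gene. A feature not above background on any array of 1 group gives a lower bound on the fold, in which each dim array takes its own signal or, if higher, the lowest signal of any feature well above background there. Genes were fitted with limma 3.58.1 (lmFit, eBayes; R 4.3.3, data.table version 1.17.8), phenolphthalein minus corn oil, with Benjamini-Hochberg adjustment at 0.05 over all genes. The fit was tested on simulated data. The number of arrays limits the precision. Counts of groups that do not overlap are over the 11426 genes with no missing spot.

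The members and the lists of other genes were chosen with earlier results of these data known. All members were to be named, with Ifnar1, Ifnar2, Ifngr1, Jak1, Tyk2, Irf3, the 5 genes of smallest p of each pathway list and the gene of smallest p of each cell type list. One result is not reported here. Cd14, Alb, S100a8, S100a9, Klrd1, Klrb1a, and the array features set side by side, were chosen after their values were seen. Replicate numbers did not pair the samples: same-numbered deviations from the group means correlated at -0.0245, 0.0165 and -0.0035 over 11426 genes. Alternatives were normexp with an offset of 50, run on the median spot signal, quantile normalization, a median shift, no filter and a filter on all 6 arrays, averaging the features of a gene, a robust prior with an intensity trend, keeping marked spots, the deposited values, masking low array columns, a replicate block and leaving out each array.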

Additional observations from a re-analysis of the deposited data

How the results depend on the processing

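Under 17 alternative settings, 0 of 509 values of the interferon-stimulated genes had a limma adjusted p under 0.05, and the lowest was 0.138. With the replicate number as a block, 0 of the 30 passed the test and the median log2 fold change was -0.52. At an unadjusted p under 0.05, 10 were lower, against 7.44% of all genes. The calls over all genes went from 7 to 0. Calls over all genes ranged from 0 to 10 over the settings. The median of the list stayed below 0 in every setting and ran from -0.56 to -0.36 as each array was left out. The count of members whose groups did not overlap was 12, and 8 under a median shift (6.32% of all genes), 10 with normexp (10.2%) and 15 with the mean of a gene's features (11.6%). It ran from 12 to 20 as each array was left out, with 20 reached without corn oil replicate 2 (15.3%), and the share of all genes then ran from 14.1% to 18.0%. The count at least 2-fold lower was an addition made after seeing the data. It ran from 1 without corn oil replicate 1 (1.66% of all genes) to 11 without corn oil replicate 2 (1.53%). For the other interferon-induced genes, the count whose groups did not overlap was 14 (11.0% of all genes), and 9 under a median shift (6.32%). It ran from 16 to 17 as arrays were left out, where the share of all genes ran from 14.1% to 18.0%. A median shift moved the median of all genes to 0.089. The median of the other interferon-induced genes was -0.19 with normexp and ran from -0.35 to -0.23 as arrays were left out. The median of the sensing and signalling genes was 0.043 under a median shift and -0.12 with the mean of a gene's features, and ran from -0.063 to 0.0095 as arrays were left out.

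A changed sign was found in 16 values of 7 members, each near 0 in the report, and the cause was not tested. Oas1b was 0.027 with normexp and 0.0028 under a median shift. Parp14 was -0.084 with normexp and -0.017 with quantile normalization, and Stat2 was -0.011 with quantile normalization. Mx2 was 0.060 under a median shift, and Eif2ak2 was 0.042 with the mean of its features. As arrays were left out, Parp14 ran from -0.19 to 0.20, Stat2 from -0.093 to 0.15, Mx2 from -0.22 to 0.17, Eif2ak2 from -0.34 to 0.076, Ifi44l from -0.29 to 0.11 and Cxcl11 from -0.077 to 0.30. Signal over background limits Ifit1 and Tlr7, whose treated arrays were mostly or wholly not above it. Of the cell type markers tested, Zbtb46, Ccr7 and Csf3r were also not well above background on every array.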
